A study of Homo sapiens with 6 samples.

Results

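Ubiquitin-conjugating E2 enzymes were followed in HEK293T cells that received a plasmid labelled ERbeta. The members are all genes whose symbol is UBE2 followed by a letter and, for some, further digits, together with UBE2QL1. They make up 37 of the 64299 genes in the count table. Of these, 33 had enough reads to be tested, and the other 4 are UBE2L2, UBE2L4, UBE2L5 and UBE2U.

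The study sequenced poly(A) RNA in 6 libraries from HEK293T, an easily transfected line derived from human embryonic kidney. The 3 ERbeta libraries came from cells transiently transfected with the ERbeta plasmid, and the 3 EV_Ctrl libraries from cells given the empty vector with the same lipid reagent. The series text names the line as HEK293. The labels do not define ERbeta. Knowledge of the study from outside the files gives it as an artificial β-sheet protein sent into the endoplasmic reticulum (ER), not the estrogen receptor. No promoter, share of transfected cells or harvest time is given in the sources used here, and nothing says that replicates were grown separately, so the p-values speak only of the spread among these 6 libraries, which may be technical.

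Ubiquitin is a small protein that marks others for degradation, trafficking or signalling. An E1 enzyme activates it, an E2 carries it as a thioester on a catalytic cysteine, and an E3 ligase brings the E2 to the substrate. The E2 often decides how the next ubiquitin is joined, and some E2s carry ubiquitin-like proteins such as SUMO, NEDD8 or ISG15 instead. At the ER membrane, UBE2J1, UBE2J2, UBE2G1 and UBE2G2 serve ER-associated degradation, the route by which misfolded ER proteins are passed to the proteasome in the cytosol.

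For 8 of the genes compared with a paralog below, the coding sequence around the catalytic cysteine is shown so that the similarity behind the read assignment can be seen. Each line holds 63 bases of the GENCODE 29 coding strand on GRCh38, and the capitals mark the cysteine codon. In the UBE2D family it is codon 85, and the windows lie in single coding exons of UBE2D1 (chr10:58364795-58364857, plus strand), UBE2D2 (chr5:139614885-139614947, plus strand), UBE2D3 (chr4:102801473-102801535, minus strand) and UBE2D4 (chr7:43948656-43948718, plus strand).
UBE2D1: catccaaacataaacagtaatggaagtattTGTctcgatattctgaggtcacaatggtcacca
UBE2D2: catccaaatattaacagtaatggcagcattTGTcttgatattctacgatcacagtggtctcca
UBE2D3: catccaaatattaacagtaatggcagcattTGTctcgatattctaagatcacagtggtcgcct
UBE2D4: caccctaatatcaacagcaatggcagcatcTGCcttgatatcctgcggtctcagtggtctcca
UBE2B: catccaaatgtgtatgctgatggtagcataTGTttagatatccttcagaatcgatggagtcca
UBE2A: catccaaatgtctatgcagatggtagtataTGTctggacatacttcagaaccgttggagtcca
UBE2J1: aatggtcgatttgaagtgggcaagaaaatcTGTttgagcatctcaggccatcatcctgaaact
UBE2J2: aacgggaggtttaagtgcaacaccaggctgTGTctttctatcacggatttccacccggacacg

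UBE2D2 and UBE2D3 differ at 4 bases of this window, UBE2D1 and UBE2D2 at 10, and UBE2D1 and UBE2D4 at 15. Over their whole coding sequences UBE2D2 and UBE2D3 share 31 identical stretches of 50 bases, and the other pairs among the 4 UBE2D genes share 0. Stretches were counted from every start base, so the 31 overlap and do not stand for separate places. The window of UBE2B (codon 88, chr5:134380799-134388377, plus strand) and that of UBE2A (codon 88, chrX:119581587-119582640, plus strand) each span an intron and differ at 9 bases. These 2 coding sequences are 80.5% identical over 456 bases and share 0 stretches of 50 bases. UBE2J1 (codon 91, chr6:89338478-89338540, minus strand) and UBE2J2 (codon 94, chr1:1257094-1257233, minus strand, across an intron) differ at 33 of the 63 bases. Reads from the shared part of the coding sequences of UBE2D2 and UBE2D3 could therefore be ambiguous between these genes. The other pairs shown have no such stretch in their coding sequences. Untranslated parts and pseudogenes were not compared, so ambiguous reads there cannot be judged for any pair.

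No E2 gene passed the threshold over all genes, but 9 of the 33 tested members were higher in ERbeta in every library. They are UBE2W, UBE2D1, UBE2V2, UBE2B, UBE2Q2, UBE2E1, UBE2J1, UBE2D3 and UBE2K, with log2 fold changes of 0.31 to 0.94. In these bulk libraries more RNA per cell and more cells with that RNA cannot be told apart. By edgeR's quasi-likelihood test, adjusted by Benjamini-Hochberg over 16243 genes, 0 of 33 members had an adjusted p under 0.05, against 0% of all genes, and the 9 had adjusted p-values of 0.326 to 0.397. At an unadjusted p under 0.05, 9 members (27.3%) were higher in ERbeta, against 9.54% of all genes, and 0 members were lower, against 2.88%. The ERbeta libraries lay wholly above the EV_Ctrl libraries for the same 9 members, against 10.2% of all genes, and wholly below for UBE2H alone, against 8.48%. The other 24 tested members had log2 fold changes of -0.19 to 0.24 and adjusted p-values of 0.502 to 0.988. As a class the E2 genes had a median log2 fold change of 0.028 beside -0.012 for all genes, and 18 of 33 (54.5%) were above 0, against 48.3% of all genes. Together they took 0.290, 0.297 and 0.282% of the counts in ERbeta 1, 2 and 3, against 0.290, 0.279 and 0.291% in EV_Ctrl 1, 2 and 3. The means were 0.290 ± 0.00788% in ERbeta and 0.287 ± 0.00679% in EV_Ctrl (SD, n = 3 each; exact permutation p = 0.6, two-sided, where the smallest p possible is 0.1).

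**Figure D1:**
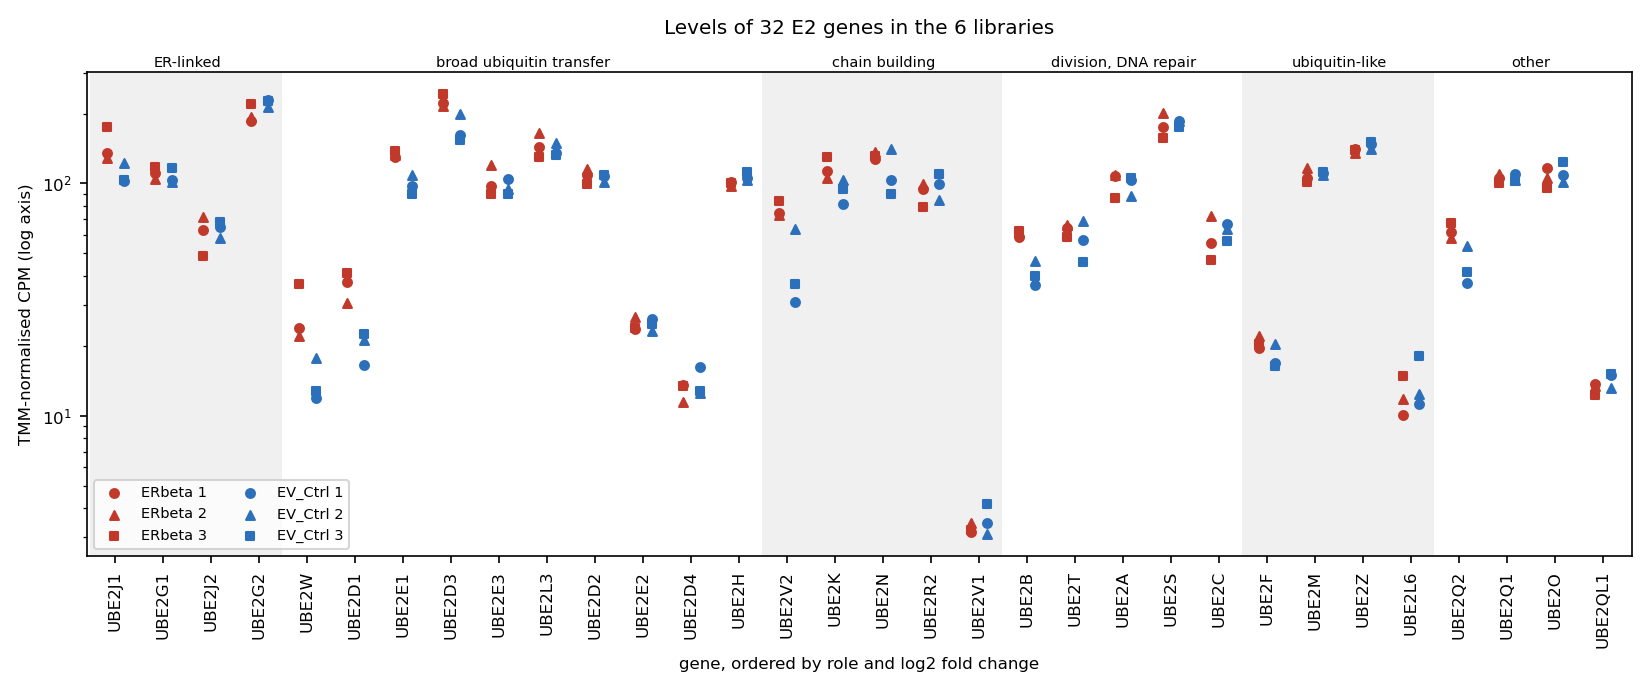
Level of 32 tested E2 genes in the 6 libraries, as TMM-normalised CPM on a log axis, with ERbeta libraries in red left of EV_Ctrl libraries in blue and genes grouped by role. The 9 genes whose red points all lie above their blue points are found in 5 of the 6 role groups, and in 8 of the 9 the highest blue point is EV_Ctrl 2.

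The libraries differ among themselves in ways that touch these results. Total counts were 13149304 to 16531368 in ERbeta and 6833442 to 27101644 in EV_Ctrl. On the first principal component, 60.8% of the variance, EV_Ctrl 2 at -13.9 lay beside the ERbeta libraries (-42.1 to -13.9) and apart from EV_Ctrl 1 and 3 (44.7 and 41.6). GC-poor genes were low in EV_Ctrl 1 and 3: at 35% GC the fitted deviation in log2 CPM was 0.30, 0.20 and 0.55 in ERbeta 1, 2 and 3, against -0.67, 0.17 and -0.55 in EV_Ctrl 1, 2 and 3. Markers of HEK293 cells (NEFL, NEFM, PAX2, LHX1 and SIX2) summed to 182.5 to 205.5 CPM in ERbeta and 200.3 to 218 CPM in EV_Ctrl. Most of the sum was NEFL, which overlapped between groups, as did PAX2. NEFM, LHX1 and SIX2 lay wholly lower in ERbeta, as did 8.48% of all tested genes. LHX1 was at 17.1 to 20.6 CPM in ERbeta, against 22.2 to 25.9 CPM in EV_Ctrl. Markers of other cell types summed to 13.8 to 22.7 CPM in ERbeta and 19.3 to 31.0 CPM in EV_Ctrl, nearly all from COL1A1, with PTPRC, KRT5, CDH5, ALB and MYH6 at or near 0.

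Among the ER-linked E2s, UBE2J1 alone of 4 was higher in every ERbeta library. UBE2J1 (ENSG00000198833.6, chr6:89326625-89352848, minus strand), the tail-anchored E2 that works with the HRD1 ligase, stood at 135, 129 and 175 CPM (counts per 1e+06 counts, TMM-normalised) in ERbeta 1, 2 and 3, against 102, 122 and 104 CPM in EV_Ctrl 1, 2 and 3. ERbeta 3 was the highest library, and ERbeta 2 and EV_Ctrl 2 were the closest across the groups. The log2 fold change was 0.42 ± 0.15 (SE; edgeR adjusted p = 0.397), and 0.27 without ERbeta 3. With the libraries' GC trends taken into account by an offset, described below, it was 0.034 ± 0.10. UBE2J2, the other tail-anchored E2, was at 63.0, 71.9 and 48.7 CPM in ERbeta, against 65.3, 58.4 and 68.5 CPM in EV_Ctrl. The groups overlapped, with the lowest and the highest value both in ERbeta. UBE2G2 (ENSG00000184787.16, chr21:44768580-44802019, minus strand), the soluble E2 recruited to the ER ligase gp78, was at 185, 194 and 219 CPM in ERbeta, against 229, 212 and 226 CPM in EV_Ctrl. Its log2 fold change of -0.16 ± 0.10 had the smallest p among the members lower in ERbeta (edgeR unadjusted p = 0.161, adjusted p = 0.507), and ERbeta 3 overlapped with EV_Ctrl 2. UBE2G1, its paralog, was at 111, 104 and 118 CPM in ERbeta, against 103, 102 and 117 CPM in EV_Ctrl, with overlapping groups.

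The promoter of UBE2J1 was read for known stress-response motifs because it is an ER-associated degradation gene among the 9. The letters TGACGTGG, the core of the unfolded protein response element recognised by XBP1 and ATF6, were searched on both strands in RefSeq promoter windows on GRCh38.p14 that run from 250 bases before to 50 after a start site. They occur in 0.729% of 35116 windows and, of 27 member genes with windows, in UBE2J1 only. The match lies at -231 to -224 from the RefSeq start, and its reverse complement is in capitals in the 250 bases before that start (chr6:89352723-89352972, minus strand). GENCODE 29 begins the gene at 89352848, inside this window and after the match.
UBE2J1 promoter: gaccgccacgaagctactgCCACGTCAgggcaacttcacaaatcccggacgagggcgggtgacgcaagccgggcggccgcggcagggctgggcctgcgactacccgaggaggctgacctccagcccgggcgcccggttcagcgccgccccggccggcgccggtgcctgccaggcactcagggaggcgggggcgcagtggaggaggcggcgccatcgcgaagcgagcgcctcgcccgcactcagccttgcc

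The ER stress element (ERSE, in 0.0769% of windows), its variant ERSE-II (0.0541%) and the amino acid response element TGATGCAA (0.866%) matched none of the 27 member genes. The cyclic AMP element TGACGTCA (1.85% of windows) matched UBE2S, which was at 176, 202 and 156 CPM in ERbeta, against 186, 185 and 175 CPM in EV_Ctrl. A match is a run of letters and was not tested for binding.

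The UBE2D family, which works with a wide range of RING and HECT ligases, was split: UBE2D1 and UBE2D3 were higher in every ERbeta library, and UBE2D2 and UBE2D4 were not. UBE2D1 (ENSG00000072401.12, chr10:58334975-58370753, plus strand) was at 37.8, 30.6 and 41.0 CPM in ERbeta 1, 2 and 3, against 16.6, 21.2 and 22.6 CPM in EV_Ctrl 1, 2 and 3. Every ERbeta library was above every EV_Ctrl library, and the groups were further apart than the spread within either. The log2 fold change was 0.85 ± 0.16 (SE), with the smallest p of all E2 genes (edgeR unadjusted p = 0.000975, adjusted p = 0.326). Under the GC offset it was 0.11 ± 0.19. UBE2D3 (ENSG00000109332.17, chr4:102794383-102868896, minus strand) was at 223, 216 and 243 CPM in ERbeta, against 162, 198 and 154 CPM in EV_Ctrl, a log2 fold change of 0.40 ± 0.12. Here too the groups did not overlap, and under the GC offset the fold change was 0.024 ± 0.092. An antisense gene, UBE2D3-AS1, had 4 to 35 reads per library. Whether counting used strand is not stated, so its bearing on the UBE2D3 count is uncertain. UBE2D2 was at 109, 116 and 99.6 CPM in ERbeta, against 107, 102 and 109 CPM in EV_Ctrl, and UBE2D4 at 13.6, 11.5 and 13.5 CPM in ERbeta, against 16.2, 12.6 and 12.8 CPM in EV_Ctrl. Both overlapped between groups.

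Of the other E2s that pair with many ligases, UBE2E1 and UBE2W stood apart between groups. UBE2E1 (ENSG00000170142.9, chr3:23805903-23891316, plus strand) was at 129.7, 133 and 137 CPM in ERbeta, against 97.1, 109 and 89.9 CPM in EV_Ctrl. The 3 ERbeta libraries were within a narrow range above all controls, a log2 fold change of 0.43 ± 0.11 (SE; edgeR unadjusted p = 0.00403, adjusted p = 0.397), and 0.26 ± 0.09 under the GC offset. UBE2W (ENSG00000104343.17, chr8:73780097-73878910, minus strand), which attaches ubiquitin to the amino terminus of its substrates, was at 23.9, 22.02 and 36.9 CPM in ERbeta, against 11.9, 17.7 and 12.8 CPM in EV_Ctrl. It had the largest E2 fold change, 0.94 ± 0.24, with ERbeta 3 well above the other libraries, and 0.27 ± 0.14 under the GC offset. UBE2E2, UBE2E3 and UBE2L3, the last specific to HECT and RING-between-RING ligases, had overlapping groups and log2 fold changes of 0.00495 to 0.098. UBE2H, the E2 of the CTLH ligase that is abundant in maturing red cells, was at 101, 97.4 and 100.5 CPM in ERbeta, against 105, 104 and 112 CPM in EV_Ctrl. It was the only E2 with all ERbeta libraries below all EV_Ctrl libraries, by a log2 fold change of -0.10 ± 0.09 (edgeR unadjusted p = 0.298, adjusted p = 0.625).

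Among E2s that build defined ubiquitin chains, UBE2V2 and UBE2K were higher in every ERbeta library and UBE2N was not. UBE2V2 (ENSG00000169139.9, chr8:48008400-48064708, plus strand), which lacks the catalytic cysteine and guides UBE2N in chain building, was at 74.8, 73.3 and 84.4 CPM in ERbeta, against 30.8, 63.5 and 37.1 CPM in EV_Ctrl. EV_Ctrl 2 was far closer to the ERbeta libraries than to the other controls. The log2 fold change was 0.81 ± 0.25 (SE; edgeR unadjusted p = 0.0132, adjusted p = 0.397) and 0.15 ± 0.09 under the GC offset. UBE2N, the catalytic partner known as UBC13, was at 127, 137 and 131 CPM in ERbeta, against 103, 140.2 and 90.04 CPM in EV_Ctrl. EV_Ctrl 2 was the highest of all 6 libraries, so the groups overlapped (log2 fold change 0.24 ± 0.17). UBE2K (ENSG00000078140.11, chr4:39698044-39782792, plus strand), an E2 that is also a partner of huntingtin, was at 113, 106 and 129 CPM in ERbeta, against 81.5, 103 and 95.1 CPM in EV_Ctrl. Its fold change of 0.31 ± 0.13 turned to -0.30 ± 0.13 under the GC offset. UBE2R2, a partner of cullin ligases, overlapped between groups (log2 fold change -0.10), as did UBE2V1 (-0.11). UBE2V1 is uncertain, since it had only 25 to 82 reads per library and overlaps the read-through gene PEDS1-UBE2V1, which was listed at 0 reads in all 6 libraries.

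Of the 5 E2s of cell division and DNA repair, only UBE2B was higher in every ERbeta library. UBE2B (ENSG00000119048.5, chr5:134371179-134391992, plus strand), a human form of yeast RAD6 that modifies histone H2B and PCNA, was at 59.0, 61.7 and 62.2 CPM in ERbeta, against 36.6, 46.4 and 40.1 CPM in EV_Ctrl. The ERbeta libraries nearly coincided and lay above all controls. The log2 fold change was 0.57 ± 0.12 (SE; edgeR unadjusted p = 0.00177, adjusted p = 0.384), and 0.25 ± 0.10 under the GC offset. UBE2A, the other RAD6 gene, had a log2 fold change of 0.028 ± 0.13 with overlapping groups, and UBE2T, the E2 of the Fanconi anaemia pathway, one of 0.13 ± 0.16. UBE2C, which starts chains for the anaphase-promoting complex, was at 55.5, 72.4 and 46.8 CPM in ERbeta, against 67.2, 63.9 and 56.6 CPM in EV_Ctrl. Its partner UBE2S, which extends those chains, also overlapped (log2 fold change -0.03 ± 0.12).

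None of the E2s that carry ubiquitin-like proteins had an unadjusted p under 0.05. UBE2M, the main E2 for NEDD8, was at 105, 116 and 101 CPM in ERbeta, against 111, 109 and 112 CPM in EV_Ctrl, a log2 fold change of -0.04 ± 0.10. The ERbeta libraries spread more widely than the EV_Ctrl libraries and the groups overlapped. UBE2F, the second E2 for NEDD8, had a log2 fold change of 0.20 ± 0.13, UBE2L6, the E2 for ISG15, one of -0.19 ± 0.22, and UBE2Z, which takes ubiquitin and FAT10 from UBA6, one of -0.08 ± 0.09. The read-through gene UBE2F-SCLY, which overlaps UBE2F, held 18 reads over all libraries.

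Of the remaining members, UBE2Q2 (ENSG00000140367.9, chr15:75843285-75901078, plus strand) was at 62.1, 58.0 and 67.5 CPM in ERbeta, against 37.1, 54.1 and 41.5 CPM in EV_Ctrl. All ERbeta libraries were higher, though ERbeta 2 and EV_Ctrl 2 were close (log2 fold change 0.49 ± 0.16, and 0.29 ± 0.10 under the GC offset). UBE2Q1, its paralog, was level at -0.01 ± 0.10, and UBE2O, a large E2 that also acts as its own ligase, at -0.07 ± 0.12. UBE2QL1, a UBE2Q-like gene, was at 13.6, 13.4 and 12.3 CPM in ERbeta, against 14.96, 13.2 and 15.1 CPM in EV_Ctrl, with overlapping groups. Over all 6 libraries UBE2L2, a processed pseudogene, had 0 reads, UBE2L4, another, had 9, UBE2L5 had 8 and UBE2U had 2, so these 4 were not tested.

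**Figure D2:**
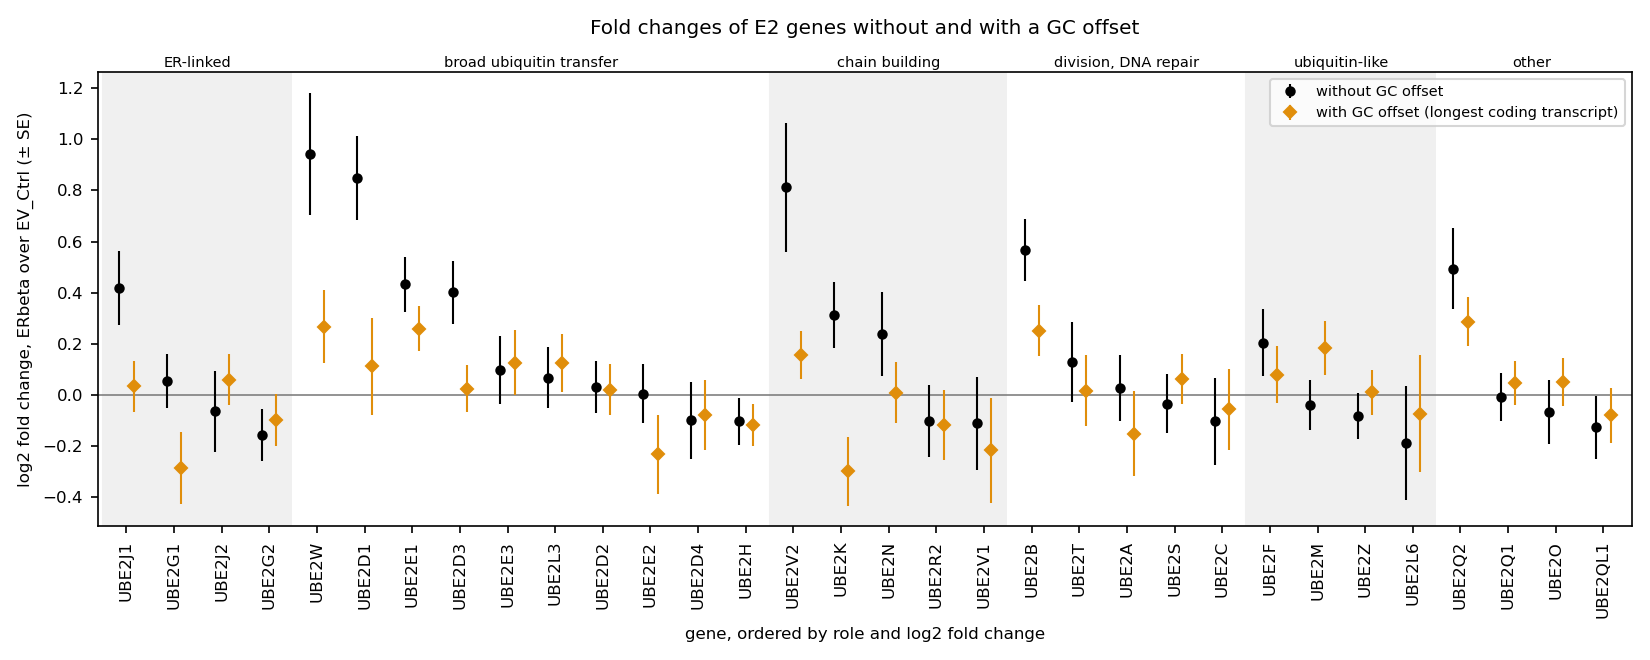
Log2 fold change of 32 tested E2 genes, ERbeta over EV_Ctrl, with its standard error (3 libraries in each group), from edgeR without a GC offset (black circles) and with the offset (orange diamonds). Black points above 0.3 belong to the 9 genes named in the text, and under the offset those 9 lie between -0.30 and 0.29.

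The 9 genes were GC-poor. The GC content of the longest coding transcript was 34.0 to 42.8% (median 39.99%) for the 9 and 40.7 to 65.6% (median 49.1%) for the other 24. Only UBE2G1, UBE2N, UBE2E2 and UBE2A among the 24 were as GC-poor as the upper end of the 9. Across the 33 members GC content and log2 fold change were correlated (Pearson's r = -0.74, Spearman's rho = -0.75), as they were across all 16091 genes with a GC value (r = -0.55, rho = -0.61). These are descriptions across genes, which share their libraries and are not replicates. At or below the median GC content of all tested genes (48.8%), 9 of 21 members (42.9%) were higher at an unadjusted p under 0.05, against 17.5% of all genes. Above it, 0 of 12 members were, against 1.67% of all genes, and their log2 fold changes spanned -0.19 to 0.07.

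Entering each library's GC trend as an offset reduced the separation. Of the 9 genes 8 kept a positive log2 fold change, the exception being UBE2K. The median of the 9 was 0.15 with the offset and 0.49 without. UBE2D3 (0.024 ± 0.092), UBE2J1 (0.034 ± 0.10) and UBE2D1 (0.11 ± 0.19) had values smaller than their SE. With EV_Ctrl 2 also left out, UBE2D3, UBE2J1 and UBE2D1 were at -0.022, -0.036 and -0.12. UBE2D3 was also negative (-0.084) with GC content taken from the longest transcript of any type. UBE2B, UBE2E1 and UBE2Q2 remained at an unadjusted p under 0.05, which is 9.09% of members against 5.62% of all genes. In edgeR's test with the offset their adjusted p-values were 0.474 for UBE2B and 0.461 for UBE2E1 and UBE2Q2. UBE2G1, UBE2A and UBE2E2 had values of -0.29, -0.15 and -0.23 with the offset, all above 0 without it. The correlation of GC content with fold change among members was 0.02 with the offset (rho -0.02). The offset is fitted to remove the trend with this GC content over all genes, so a value near 0 is largely built in. What gave the libraries different GC trends was not tested.

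**Figure D3:**
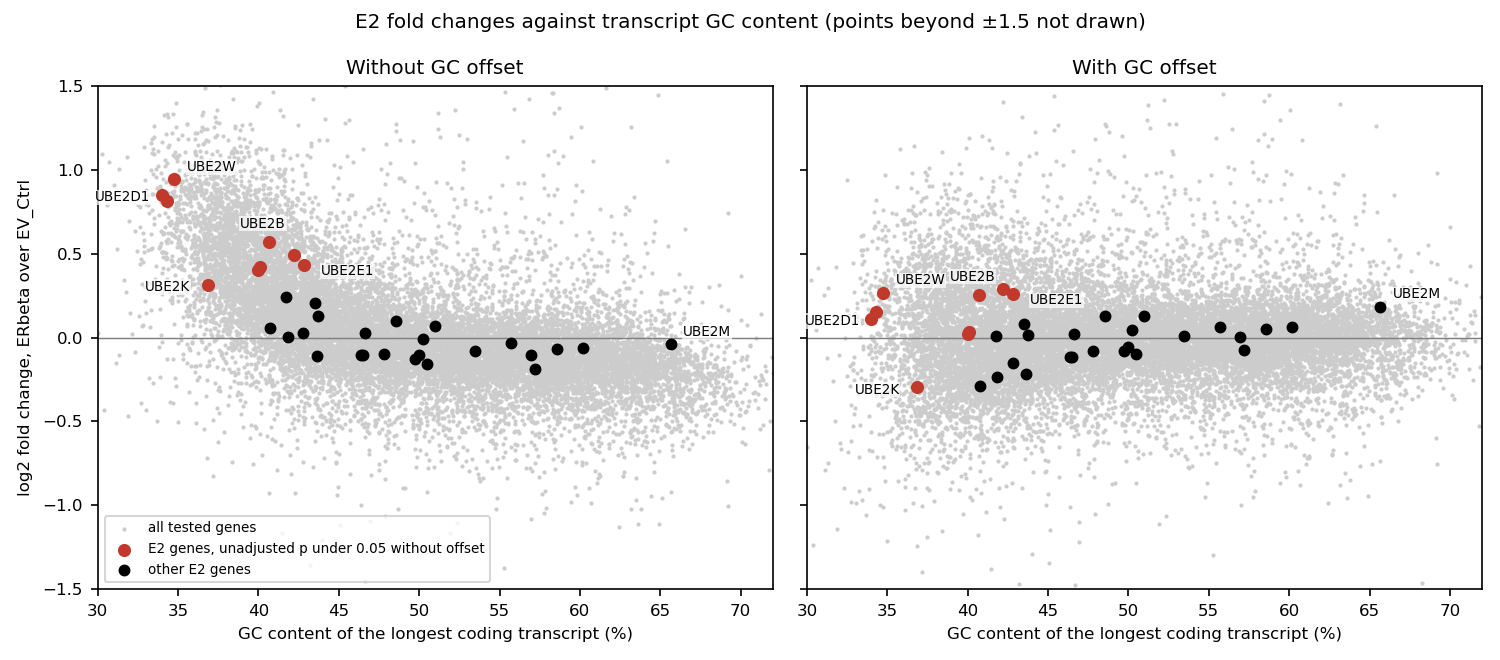
Log2 fold change, ERbeta over EV_Ctrl, against the GC content of the longest coding transcript in percent, without (left) and with (right) the GC offset, for all tested genes in grey and E2 genes in red (unadjusted p under 0.05 without the offset) or black. On the left the E2 genes follow the downward slope of all genes. On the right their correlation with GC content is 0.02, which is largely built in, as the offset removes the GC trend of all genes.

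The calls turned on a single control. Without EV_Ctrl 2, edgeR's test called 9 members higher at an adjusted p under 0.05 (27.3%, against 13.5% of all genes). These were UBE2B (0.00375), UBE2D1 (0.0055), UBE2D3 (0.0094), UBE2E1 (0.0106), UBE2J1 (0.0388), UBE2N (0.0281), UBE2Q2 (0.00534), UBE2V2 (0.000199) and UBE2W (0.00435), with edgeR's adjusted p in brackets. UBE2K was not among them, and UBE2N was added. With EV_Ctrl 2 left out and the GC offset applied as well, UBE2Q2 was called higher (edgeR adjusted p = 0.0499), against 6.25% of genes, and UBE2G1 and UBE2K were called lower (both 0.0121), against 3.66%. With EV_Ctrl 2 as the only control, the log2 fold changes of UBE2D1, UBE2W and UBE2B were 0.79, 0.64 and 0.40. In that fit those of UBE2E1, UBE2V2, UBE2J1, UBE2Q2, UBE2D3 and UBE2K were 0.29, 0.29, 0.26, 0.21, 0.20 and 0.17, and that of UBE2N was -0.091.

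On all 6 libraries, DESeq2's Wald test called UBE2D1 (adjusted p = 0.0083) and UBE2B (adjusted p = 0.039) higher, 6.06% of members against 0.432% of all genes. The authors' deposited table gives an adjusted p under 0.05 for 6 of 32 members, all higher in ERbeta, against 3.35% higher and 0.43% lower among the 11150 genes with an adjusted p in that table. In the authors' deposited table these are UBE2D1 (0.014), UBE2D3 (0.0191), UBE2E1 (0.032), UBE2B (0.0333), UBE2J1 (0.0374) and UBE2W (0.0442). Its log2 fold changes had the same sign as those computed here for 33 of 33 members. That is no independent evidence, as it compares the same groups of this series. The authors' deposited table also gives a fold change for 8079 genes with 0 reads in all 6 libraries analysed here, so its fit was not made on these counts alone.

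Related E2s, and the functional partners UBE2C and UBE2S, were compared within each library. The reads of one gene were divided by those of the other, which needs no normalisation between libraries. The 12 pairs were chosen after their values were seen. For a pair, the value under the GC offset is the difference between the genes' edgeR log2 fold changes with the offset. It is not a recomputed read ratio. UBE2D1 had 0.348, 0.264 and 0.412 reads per read of UBE2D2 in ERbeta 1, 2 and 3, against 0.155, 0.208 and 0.208 in EV_Ctrl 1, 2 and 3. Every ERbeta ratio was above every EV_Ctrl ratio, a log2 difference of 0.83 that was 0.09 under the GC offset, and UBE2D1 is 12.6 percentage points poorer in GC than UBE2D2. UBE2B had 0.547, 0.568 and 0.716 reads per read of UBE2A in ERbeta, against 0.353, 0.524 and 0.379 in EV_Ctrl, a log2 difference of 0.56, and 0.40 under the offset. Again the groups did not overlap, with EV_Ctrl 2 just below ERbeta 1. UBE2E1 had 5.50, 4.97 and 5.74 reads per read of UBE2E2 in ERbeta, against 3.71, 4.71 and 3.62 in EV_Ctrl, a log2 difference of 0.44. For this pair GC content differs by 1.007 percentage points. The value under the offset was 0.49, with UBE2E1 at 0.26 ± 0.09 and UBE2E2 at -0.23 ± 0.15. The groups were also apart for UBE2Q2 over UBE2Q1 (0.52, and 0.24 under the offset) and UBE2G1 over UBE2G2 (0.22, and -0.19 under the offset). In each of these 5 pairs the exact permutation p was 0.1, the smallest that 3 against 3 libraries allow, and 0.24 after Benjamini-Hochberg adjustment over the 12 pairs.

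UBE2J1 over UBE2J2 gave 2.14, 1.80 and 3.59 in ERbeta, against 1.57, 2.09 and 1.51 in EV_Ctrl. These groups overlapped, with a log2 difference of 0.49 (exact permutation p = 0.2, adjusted 0.267) that was -0.03 under the offset. The other overlapping pairs were UBE2D3 over UBE2D2 (0.38), UBE2D1 over UBE2D3 (0.45), UBE2E1 over UBE2E3 (0.35), UBE2C over UBE2S (-0.08), UBE2D4 over UBE2D2 (-0.13) and UBE2L6 over UBE2L3 (-0.23), with log2 differences in brackets. The cell-division pair UBE2C and UBE2S had nearly the same ratio in all libraries, 0.300 to 0.359 in ERbeta and 0.323 to 0.361 in EV_Ctrl.

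**Figure D4:**
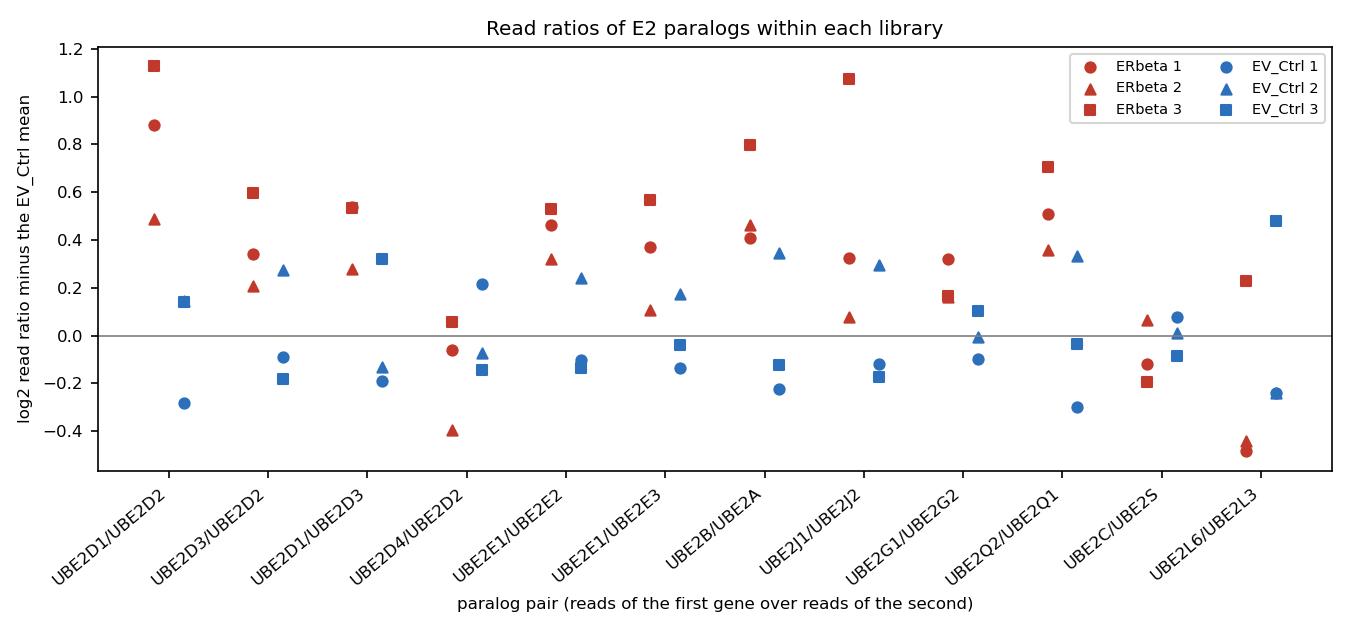
Log2 ratio of the reads of 2 E2 genes within each library, minus the mean of the EV_Ctrl libraries, for 12 pairs, with ERbeta libraries in red left of EV_Ctrl libraries in blue. The pairs are paralogs except UBE2C and UBE2S, which are functional partners. Red and blue are fully separated for UBE2D1/UBE2D2, UBE2E1/UBE2E2, UBE2B/UBE2A, UBE2G1/UBE2G2 and UBE2Q2/UBE2Q1.

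Per kilobase of the longest coding transcript, E2 genes covered a wide range of levels, and UBE2M, UBE2S and UBE2E1 were among the 4 highest in both groups. In ERbeta the highest were UBE2E1 at 88.2 ± 2.55, UBE2M at 71.4 ± 5.11, UBE2S at 69.8 ± 8.99 and UBE2T at 69.3 ± 4.30 CPM per kilobase (SD, n = 3). UBE2E1 was above the other genes by more than their SDs, while UBE2M, UBE2S and UBE2T were not separated from each other. In EV_Ctrl the highest were UBE2M at 73.4 ± 1.06, UBE2S at 71.5 ± 2.41, UBE2C at 68.5 ± 5.94 and UBE2E1 at 65.3 ± 6.38 CPM per kilobase, all within their SDs of a neighbour in this order. The lowest were UBE2V1, at 1.29 ± 0.0632 in ERbeta and 1.41 ± 0.218 CPM per kilobase in EV_Ctrl, and UBE2W, UBE2QL1 and UBE2D4, between 1.68 and 3.49 in either group. The level and place of UBE2V1 are uncertain, because it overlaps the read-through gene PEDS1-UBE2V1.

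The rest of the conjugation machinery was read from lists of E1 enzymes, ligases and their partners. No gene of any list had an adjusted p under 0.05 in edgeR's test, so the counts are at an unadjusted p under 0.05, where 9.54% of all genes were higher and 2.88% lower. In every list 0 members were lower at that level. Of 9 E1 enzymes 2 were higher, and the list median of 0.40 was 0.11 under the GC offset. UBA2, a subunit of the SUMO E1, was at 700.2, 696 and 774 CPM in ERbeta, against 473, 665 and 443 CPM in EV_Ctrl (log2 fold change 0.46). UBA3, of the NEDD8 E1, had a log2 fold change of 0.50 (0.095 under the offset, against 0.35 for UBA2), and the main ubiquitin E1, UBA1, one of -0.03. None of the 4 ubiquitin genes was higher at that level (median 0.13, and 0.20 under the offset), with RPS27A at 0.29 and UBB at 0.12.

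Of 15 ER ubiquitin ligases and partners 3 were higher, and the median was -0.0032 (0.058 under the offset). SEL1L, the scaffold of the HRD1 ligase with which UBE2J1 works, was at 110.3, 102 and 142 CPM in ERbeta, against 61.7, 84.8 and 63.5 CPM in EV_Ctrl. All ERbeta libraries were higher, with a log2 fold change of 0.75 (0.33 under the offset), while SYVN1, which encodes HRD1, had 0.09. RNFT1 had 0.36 and RNF139 had 0.32, and under the offset -0.25 and 0.25. Of 16 genes of the anaphase-promoting complex 2 were higher (median 0.04, and 0.02 under the offset), ANAPC10 (0.48, and -0.016 under the offset) and CDC27 (0.57, and -0.011 under the offset). ANAPC4, with the next smallest p, did not pass (0.38, and 0.11 under the offset). Of 14 cullin and NEDD8 pathway genes 2 were higher (median 0.20, and 0.08 under the offset), CUL3 (0.38, and -0.17 under the offset) and CUL5 (0.93, and 0.42 under the offset). CUL4B, with the next smallest p, did not pass (0.58, and 0.072 under the offset). CUL5 was at 90.6, 80.7 and 116 CPM in ERbeta, against 30.9, 85.7 and 32.2 CPM in EV_Ctrl, so that EV_Ctrl 2 lay among the ERbeta libraries.

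Of 14 SUMO pathway genes 2 were higher (median 0.20, and 0.09 under the offset), the SUMO proteases SENP6 (0.83, and 0.27 under the offset) and SENP7 (0.93, and 0.35 under the offset). The SUMO ligase PIAS1, with the next smallest p, did not pass (0.53, and 0.25 under the offset). Of 8 ligases that pair with RAD6 or UBC13, 1 was higher, SHPRH (0.63, and 0.33 under the offset), with a list median of 0.19 (0.16 under the offset). HLTF (0.70, and 0.17 under the offset) and RAD18 (0.41, and 0.16 under the offset) did not pass. Of 8 genes with an E2 fold outside the naming rule 0 were higher (median 0.21, and -0.01 under the offset). UEVLD, UFC1, the E2 for UFM1, and AKTIP had log2 fold changes of 0.47, 0.26 and 0.31, and of -0.055, 0.27 and -0.14 under the offset. CDC34, the other gene of the UBE2R pair, was at 71.9, 81.6 and 64.6 CPM in ERbeta, against 78.7, 73.9 and 76.3 CPM in EV_Ctrl. Its groups overlapped, with a log2 fold change of -0.07.

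**Figure D5:**
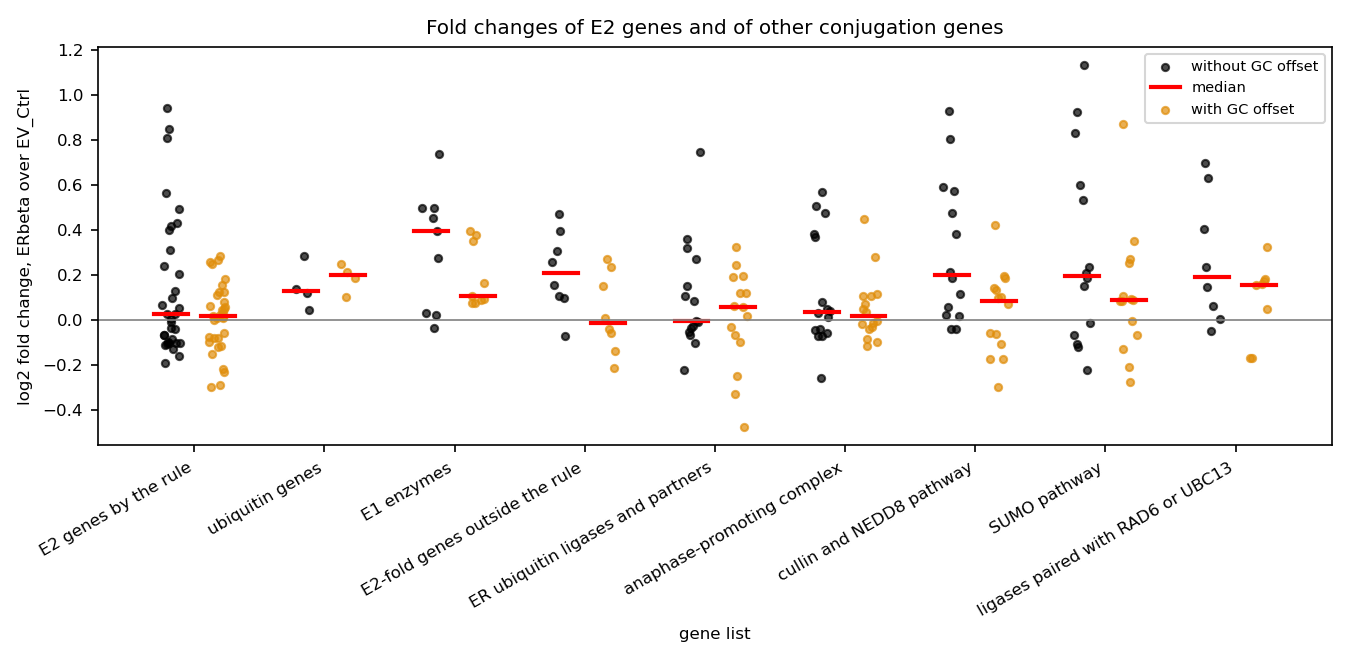
Log2 fold change, ERbeta over EV_Ctrl, of each gene (dots) and the median (red line) for the E2 genes and 8 other lists of the conjugation machinery, without (black) and with (orange) the GC offset. The E1 enzymes have the highest median without the offset, 0.40, and it is 0.11 with it.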

How the data were processed

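RNA was prepared with a stranded mRNA kit, per the labels' protocols, and the submitters' processing notes name TopHat2, featureCounts, DESeq2 and the build hg38. The sources used here do not state versions, the annotation or whether counting used strand, so overlapping and antisense genes are treated as uncertain. The deposited table holds the authors' raw read counts per gene for 64299 Ensembl identifiers in 6 libraries. A symbol was found for 56105 identifiers. A second deposited table holds the authors' comparison, with a mean signal per gene, log2 fold changes, standard errors and Wald statistics as scores, and p-values.

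Genes were kept with filterByExpr (minimum count 10, minimum total 15), normalised by TMM and tested with edgeR 4.0.16 (quasi-likelihood, group as the only term) in R 4.3.3, with Benjamini-Hochberg adjustment over 16243 genes and a threshold of 0.05. These hold at least 99.8% of the reads of each library. CPM are counts per 1e+06 counts. Standard errors come from the F statistic. Total counts limit the precision of each value, and the biological coefficient of variation was 17.5%. No libraries of a group agreed within counting noise, with chi-square per degree of freedom of 4.74 to 38.7.

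Members, lists and tests were chosen with earlier results of these data known. All members enter the counts, and some genes are not reported here by name. Those named with every library are the ER-linked E2s, the UBE2D genes, UBE2C, UBE2S, UBE2M, UBE2N, the 6 higher and 4 lower members with the smallest p, and further members that stood apart. From other lists up to 3 genes with the smallest p are named, and CDC34. Other genes were named after their values were seen.

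The GC offset used in the report is a loess fit, span 0.5, of each gene's log2 CPM against the GC content of the longest protein-coding transcript in GENCODE 29, made per library over 16091 genes. It was chosen after seeing the data, because the longest transcript of any type, used in the planned offset, is a retained-intron form for some members. Other alternatives were DESeq2 1.42.0 size factors and test, library size only, other filters, limma-voom (limma 3.58.1), robust empirical Bayes, a replicate block and leaving out libraries. Same-numbered libraries deviated with correlations of 0.23, -0.14 and -0.15, so the numbers were not taken to pair them. The test was tried on simulated counts. Their spread between libraries was smaller than in these data, so the trial does not show how the test performs here. Promoter sequences are from RefSeq, GRCh38.p14.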

Additional observations from a re-analysis of the deposited data

How the results depend on the processing

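Low read numbers limit UBE2V1, UBE2U and the UBE2L pseudogenes, and with 3 libraries a group no exact test can go below 0.1. For UBE2V1 the overlap with a read-through gene also makes the count uncertain. Changes of sign below concern members not called by edgeR's test on all 6 libraries, which called 0. They include UBE2D1, UBE2D3, UBE2J1 and UBE2K of the 9 genes higher in every ERbeta library. The cause of these changes was not tested. The number of E2 genes called, 0, was 1 (UBE2D1) with no filter on low counts, 2 with DESeq2's test, 3 with the coding GC offset and EV_Ctrl 2 left out, and 0 to 9 when libraries were left out in turn, the 9 coming without EV_Ctrl 2. Over all genes the number called, 0, was 51 with no filter, 71 with DESeq2's test, 1 with limma-voom, 9 with either GC offset, 1597 with the coding GC offset and EV_Ctrl 2 left out, and 0 to 2324 with libraries left out in turn. The median E2 log2 fold change was -0.070 with library size only, where the median of all genes was -0.10, and -0.018 to 0.077 with libraries left out. The replicate block gave 0 calls, a median of 0.024 and no change of sign. With the planned GC offset it gave 0 calls over all genes, against 9 without the block, and 0 E2 calls either way.

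Log2 fold changes changed sign as follows. With library size only, UBE2A was -0.070, UBE2D2 -0.066, UBE2E2 -0.091, UBE2G1 -0.044 and UBE2L3 -0.024. UBE2E2 was -0.0031 with DESeq2 size factors and -0.010 with at least 1 CPM in all libraries. With the planned GC offset (with the replicate block in brackets) UBE2A was -0.70 (-0.66), UBE2D3 -0.084 (-0.080), UBE2E2 -0.22 (-0.22), UBE2G1 -0.27 (-0.26), UBE2J2 0.055 (0.053), UBE2K -0.27 (-0.26), UBE2M 0.19 (0.18), UBE2O 0.056 (0.057), UBE2Q1 0.051 (0.051), UBE2S 0.067 (0.067) and UBE2T -0.21 (-0.21). With the coding GC offset UBE2A was -0.15, UBE2E2 -0.23, UBE2G1 -0.29, UBE2J2 0.060, UBE2K -0.30, UBE2M 0.18, UBE2O 0.052, UBE2Q1 0.045, UBE2S 0.063 and UBE2Z 0.0099. With that offset and EV_Ctrl 2 left out UBE2A was -0.29, UBE2D1 -0.12, UBE2D2 -0.0077, UBE2D3 -0.022, UBE2E2 -0.38, UBE2G1 -0.44, UBE2J1 -0.036, UBE2J2 0.037, UBE2K -0.44, UBE2M 0.21, UBE2O 0.024, UBE2Q1 0.060, UBE2S 0.12 and UBE2Z 0.015. With EV_Ctrl 2 as the only control UBE2D4 was 0.031, UBE2J2 0.073, UBE2L3 -0.028, UBE2N -0.091, UBE2O 0.074, UBE2Q1 0.020, UBE2QL1 0.00018, UBE2R2 0.12, UBE2T -0.13 and UBE2V1 0.085.

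With libraries left out in turn, the ranges that crossed 0 were -0.042 to 0.13 for UBE2A, -0.28 to 0.032 for UBE2C, -0.015 to 0.086 for UBE2D2, -0.16 to 0.017 for UBE2D4, -0.047 to 0.047 for UBE2E2, -0.022 to 0.18 for UBE2E3, -0.19 to 0.077 for UBE2J2, -0.018 to 0.15 for UBE2L3, -0.34 to 0.041 for UBE2L6, -0.090 to 0.0036 for UBE2M, -0.15 to 0.018 for UBE2O, -0.031 to 0.026 for UBE2Q1, -0.13 to 0.053 for UBE2S, -0.0090 to 0.30 for UBE2T and -0.23 to 0.019 for UBE2V1. The 9 genes higher in every ERbeta library stayed above 0 in all 6 of these fits, which were made without a GC offset. Their values ran from 0.23 for UBE2K to 1.19 for UBE2V2.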
